A study of Homo sapiens with 2 samples.

Results

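Small Cajal body RNAs (scaRNAs) and spliceosomal small nuclear RNAs (snRNAs) held 50 of the 16095 distinct peak positions listed for RNA crosslinked to DDX18, a nucleolar helicase of the DEAD-box type, in H9 human embryonic stem cells. A position was taken when the nearest start site, at most 500 bases from the peak centre, belonged to a gene named SCARNA or RNU, which gave 33 scaRNA positions and 2 snRNA positions, or when the deposited annotation placed the peak in a repeat of class snRNA, which gave 15 more. Repeats named for the nucleolar RNAs U3, U8, U13, U14 and U17 were left out. The 35 gene-named positions came as 45 entries, because 10 of the positions were listed under more than 1 gene. The rule used names, annotation and the distance to the start site, and it did not use heights, widths or deposited p-values. The longest scaRNA with a peak is 420 nt, so the limit of 500 removed no position within these RNAs.

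The study measured RNA bound by DDX18 with iCLIP, in which ultraviolet light fixes a protein to the RNA it touches, the protein is pulled down, and the attached RNA is sequenced. The only group held 2 samples of H9, an established human embryonic stem cell line, expressing DDX18 with a 3XFlag tag (genotype 3XFlag-DDX18 expression) under normal culture on irradiated mouse embryonic fibroblasts. A single ultraviolet dose of 160 mJ/cm2 at 254 nm was given, and an anti-Flag antibody on protein A beads was used for the pull-down. Whether the tag sits in the DDX18 gene or in a transgene, whether the line is 1 clone, and whether the 2 samples came from separate cultures is not stated in the labels. Neither untagged nor input material was analysed here. Conditions could therefore not be compared, and no height was set against the abundance of its RNA. Both samples share 1 peak list with 1 height per peak, so every value below is a single value with no spread between replicates, and the reads per sample are unknown.

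The spliceosome removes introns with the help of snRNAs. U1, U2, U4, U5 and U6 serve the major spliceosome, and U11 and U12, with U4atac and U6atac, serve the minor one. Before they work, most snRNAs pass through Cajal bodies, small nuclear bodies that often lie beside the nucleolus, where scaRNAs guide the modification of chosen bases. ScaRNAs of the C/D box family guide 2'-O-methylation, those of the H/ACA box family guide pseudouridylation, and composite ones carry both kinds of domain. They are the Cajal body relatives of the small nucleolar RNAs (snoRNAs) and, like them, are mostly cut out of introns of host genes.

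Of the markers of the labelled cells, 5 of 7 pluripotency genes had a listed peak, and of the fibroblast genes of the feeder type 3 of 7 had one, against 31.0% of all protein-coding genes. The exact 95% intervals, 29.0 to 96.3% and 9.90 to 81.6%, both include that share, so the pluripotency count does not mark out the H9 cells. The feeders were mouse cells, the tag was expressed in H9 and the list is on hg19. The count of human fibroblast genes therefore cannot report on the feeders. Among the pluripotency genes, POU5F1 and SOX2 had no listed peak. A peak list is not a measure of expression, so this says nothing of whether these 2 genes were active. Heights summed to 653535 over the whole list, with a median of 8 and a range of 3 to 76702.

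Peaks in scaRNAs were high for this list, while peaks in snRNAs ranged from among the highest to below the median. Height is the authors' whole-number value for a peak, with no scaling to depth. The 33 scaRNA positions had a median height of 33 (95% order-statistic interval of the median 20 to 45) and ran from 11 to 424. The 17 snRNA positions had a median of 17 (interval 7 to 39) and ran from 5 to 894. Of the 50 positions, 42 lay above 12, the upper quartile of the list, where 23.1% of all positions lay. For scaRNAs alone this count was 32 of 33, and for snRNAs it was 10 of 17. All 50 positions made up 0.311% of positions and 0.663% of the summed height. Leaving out the 2 highest U2 copies, which are described further on, brought that share of height down to 0.429%.

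**Figure D1:**
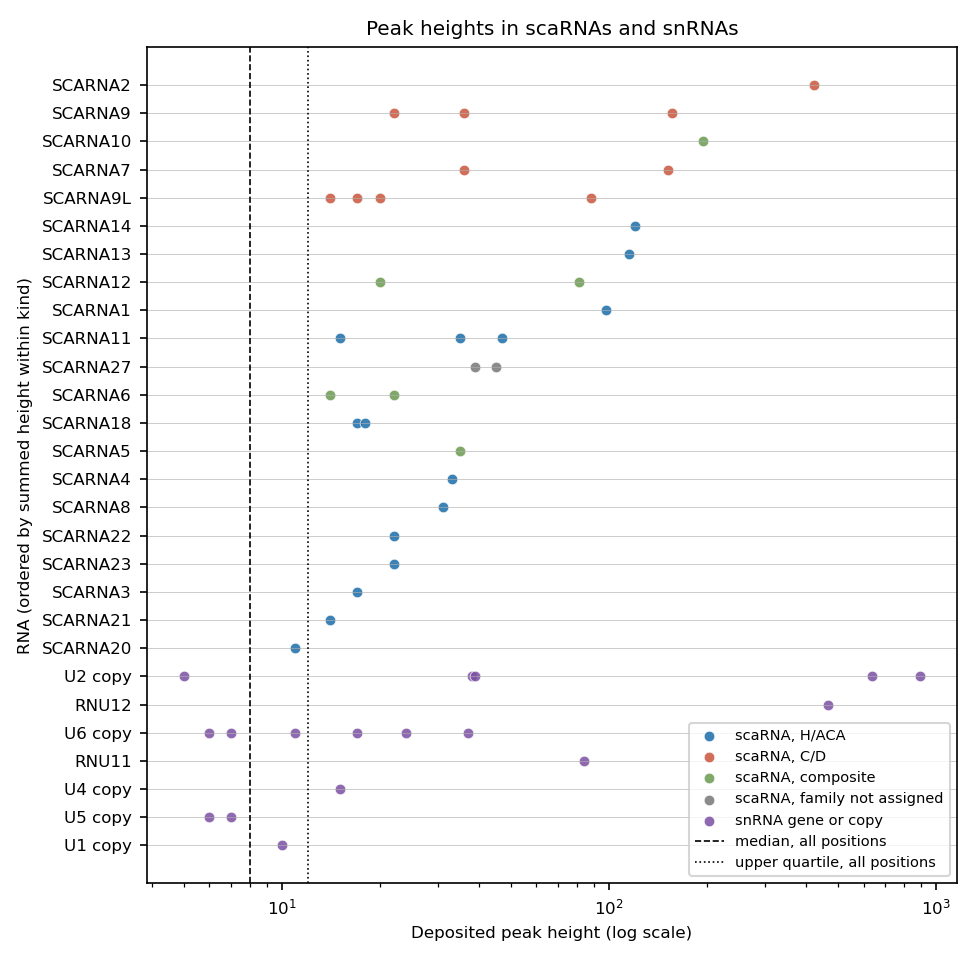
Deposited height of each of the 50 peaks (log axis), by RNA, with points coloured by family and lines at the median (8) and upper quartile (12) of all 16095 positions. In the scaRNAs all but the peak of SCARNA20 (11) lie to the right of the upper quartile, whereas the U5 copies (6 and 7), the U1 copy (10), 3 of 6 U6 copies and 1 of 5 U2 copies lie to its left.

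Set beside snoRNA genes chosen with the same distance limit, scaRNA peaks were fewer and lower. Positions at C/D box snoRNA genes numbered 191, with a median height of 74 (interval 60 to 103), and those at H/ACA box snoRNA genes 111, with a median of 67 (43 to 94). When only peaks overlapping the RNA were kept, the medians were 128 (97 to 184) for C/D box snoRNAs, 79 (53 to 102) for H/ACA box snoRNAs and 35 (22 to 47) for scaRNAs. Among these overlapping peaks the interval of the scaRNAs lay below both of the others. With the distance limit alone, the scaRNA interval (20 to 45) overlapped that of the H/ACA box snoRNAs (43 to 94). Medians are per peak, and some RNAs hold several peaks. No test was made because the peaks of a list are not replicates. The share of genes with a peak ran in the other direction. A peak was listed for 21 of the 29 scaRNA genes of the gene table (72.4%, exact 95% interval 52.8 to 87.3), for 76 of 182 H/ACA box snoRNA genes (41.8%, 34.5 to 49.3) and for 151 of 357 C/D box snoRNA genes (42.3%, 37.1 to 47.6). How much of each class is expressed in these cells was not tested. These counts go by name, matching the hg19 annotation of the list to a gene table of another build. A gene whose name is absent from that annotation counts as without a peak, and how many are absent is not given here. No peak was listed under the names SCARNA15, SCARNA16, SCARNA17, SCARNA18B, SCARNA21B, SCARNA26A, SCARNA26B and SCARNA28.

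By family, all 4 composite scaRNAs had a peak, as did 4 of 5 C/D box and 12 of 14 H/ACA box scaRNAs. The remaining scaRNA with peaks, SCARNA27, was not assigned to a family here. Median heights were 36 over the 10 C/D box positions, 28.5 over the 6 composite positions and 22 over the 15 H/ACA box positions. Their 95% intervals, 17 to 156, 14 to 194 and 17 to 47, overlapped, so the families were not separated by height.

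SCARNA2, a C/D box RNA that guides methylation of U2 and is one of the few scaRNAs with a gene of its own, had the highest scaRNA peak. It stood at chr1:109642973-109642973 on the plus strand of hg19, in exon 1 of 1 of NR_003023, with a height of 424, which ranked 78 in the whole list. The peak was 1 base wide and lay 158 nt from the 5' end of this RNA of 420 nt, so it sat in the 5' part. It was also the only scaRNA position listed under the scaRNA alone, with no host gene.

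SCARNA9, the other long C/D box guide of U2, lies in CEP295, a gene of centriole assembly, on chromosome 11. Its 3 peaks had heights of 22, 36 and 156 at 14, 96 and 335 nt from the 5' end. The highest lay 18 nt from the 3' end of an RNA of 353 nt. SCARNA9L, a gene named for its likeness to SCARNA9, lies in EIF1AX, an initiation factor gene on chromosome X, and is 348 nt long. Its 4 peaks had heights of 20, 14, 17 and 88 at 14, 97, 163 and 336 nt. For 3 of the 4 there was a SCARNA9 peak at the same distance from the 5' end to within 1 nt, and in each of these pairs SCARNA9 was higher, by 1.1, 2.57 and 1.77 times from the 5' to the 3' end. The peak at 163 nt had no partner, the nearest SCARNA9 peak being 67 nt away. How reads that match both genes were placed is not given in the sources used here, so the heights of these 2 RNAs are uncertain and need not be independent.

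**Figure D2:**
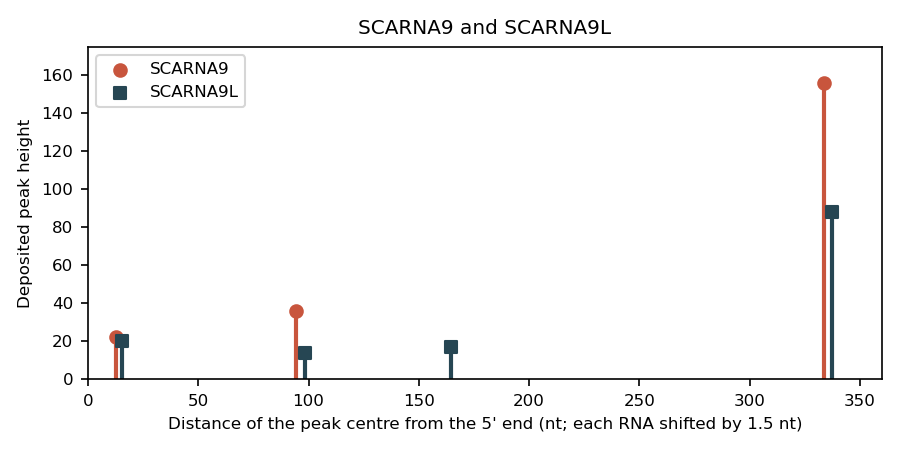
Height of each peak of SCARNA9 (circles) and SCARNA9L (squares) against its distance from the 5' end of its own RNA, in nt. In both RNAs the highest peak, 156 and 88, stands near the 3' end, and the lower peaks at 14 nt and at 96 or 97 nt stand in the same places.

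SCARNA7, a C/D box guide of U1 within the importin gene KPNA4, showed the opposite arrangement. Its peak of 151 lay 56 nt from the 5' end, and a lower one of 36 lay 246 nt from it, in an RNA of 330 nt. The peak nearer the 5' end was thus 4.19 times as high as the other.

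Among the composite scaRNAs, SCARNA10 was highest. SCARNA10, which guides both kinds of modification in U5, lies in NCAPD2, a condensin gene on chromosome 12. Its only peak, of height 194, ranked 154 in the list and lay 19 nt from the 3' end of 330 nt. SCARNA12, in the prohibitin gene PHB2, had a peak of 20 at 62 nt and one of 81 at 199 nt of 270 nt. SCARNA5 and SCARNA6 both lie in the autophagy gene ATG16L1 on chromosome 2. SCARNA5 had 1 peak of 35 near its middle, at 141 of 278 nt, and SCARNA6 had peaks of 22 and 14 at 176 and 229 of 266 nt. These were lower than the highest peaks of SCARNA10 and SCARNA12, although all 4 are of 1 kind.

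The H/ACA box scaRNAs formed the largest family and held the lowest single scaRNA peak, that of SCARNA20 (11). Peaks of 14 were found in all 3 families, in SCARNA21, SCARNA6 and SCARNA9L. SCARNA14 in TIPIN, a gene of the replication fork, had a peak of 120. SCARNA13 in the non-coding host SNHG10 had one of 115, and SCARNA1 in the phosphatase regulator gene PPP1R8 one of 98. Each of these 3 RNAs had a single peak, within 9 to 26 nt of its 3' end. SCARNA11, in the chromatin remodeler gene CHD4, had peaks of 35 and 47. SCARNA4 and SCARNA8, guides of U2 in KHDC4 and the augmin gene HAUS6, had peaks of 33 and 31. SCARNA22 in the histone methyltransferase gene NSD2 and SCARNA23 in POLA1, a DNA polymerase gene, each had 1 of 22. SCARNA18 in TMEM167A had peaks of 18 and 17, SCARNA3 in the ubiquitin ligase gene COP1 had 17, and SCARNA20 in USP32 had 11.

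Peaks in the short H/ACA box scaRNAs lay mostly in 2 stretches. An RNA of this family folds into a pair of hairpins, each followed by a short single-stranded box, the H box between them and the ACA box at the 3' end. In those under 170 nt, 12 peaks overlapped the RNA. The 5 on the 5' side were centred 31 to 46 nt from the 5' end, 6 lay 30 nt or less from the 3' end, and the remaining one, of SCARNA8, lay at 71 of 131 nt. SCARNA11 and SCARNA18 had a peak in each stretch, 79 and 81 nt apart. In SCARNA11 the 3' peak was the higher (47 against 35), and in SCARNA18 the heights were almost equal (17 against 18). SCARNA27, which lies in the EEF1E1 gene, had the same layout, with peaks of 45 and 39 at 35 and 111 nt, 76 nt apart. SCARNA3, SCARNA20 and SCARNA22 had a peak in the 5' stretch only, and SCARNA1, SCARNA4, SCARNA14 and SCARNA23 in the 3' stretch only. These stretches were drawn after the positions had been seen.

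The 3' stretch, and a 5' stretch widened to 25 to 50 nt, were counted in H/ACA box snoRNAs of 120 to 169 nt. Of their 88 peaks, 47 (53.4%) lay 30 nt or less from the 3' end, against 6 of 12 (50%) in the scaRNAs. In the stretch 25 to 50 nt from the 5' end lay 16 of the 88 (18.2%) and 5 of the 12 (41.7%). The 5' stretch was set around these 5 scaRNA peaks, which favours a higher share in scaRNAs. With 12 peaks this difference was not tested. Over all scaRNAs, 17 of 31 peaks overlapping the RNA (54.8%, exact 95% interval 36.0 to 72.7) had their centre in the 3' part, past the middle of the RNA. This compares with 63 of 98 in H/ACA box snoRNAs (64.3%, 54.0 to 73.7) and 123 of 143 in C/D box snoRNAs (86.0%, 79.2 to 91.2). In the C/D box scaRNAs the count was 3 of 10 (30%, 6.67 to 65.2), an interval that lay below that of the C/D box snoRNAs. The C/D box scaRNAs are much longer, and 7 of these 10 peaks belong to SCARNA9 and SCARNA9L, so they are not independent.

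**Figure D3:**
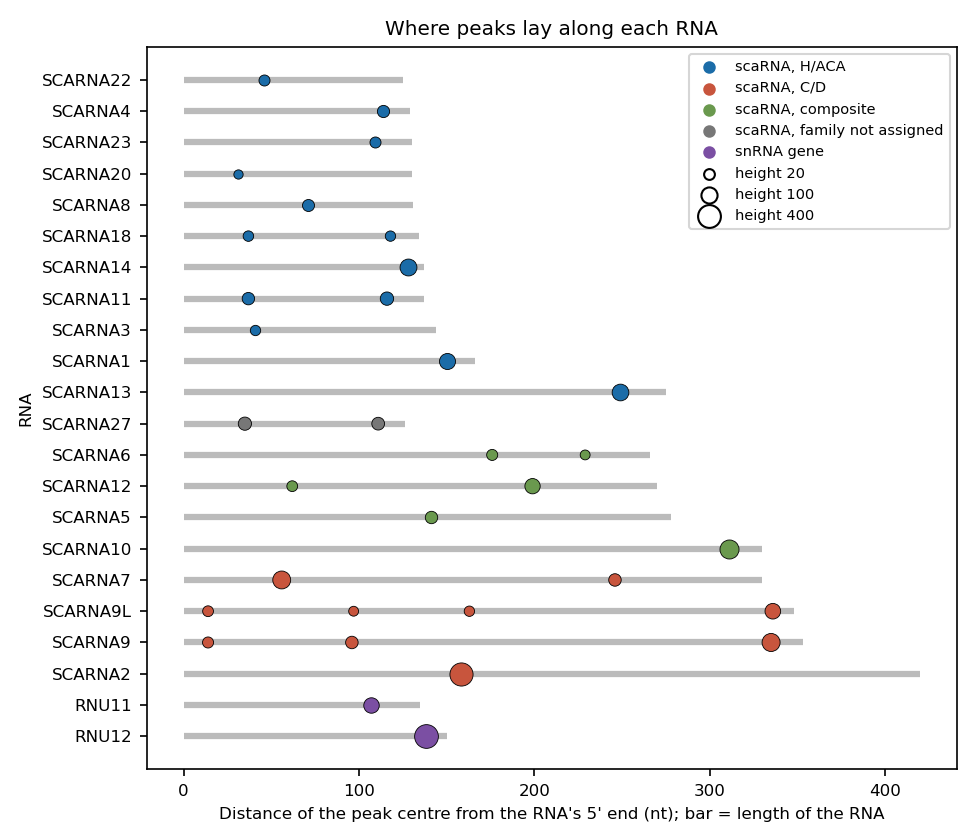
Position of each peak centre along its RNA, in nt from the 5' end, for the 33 peaks that overlap a named scaRNA or snRNA gene. Grey bars show the length of the RNA, colours the family, and the size of a circle rises with the square root of the height. In the short H/ACA box RNAs the circles stand between 31 and 46 nt or near the right end of the bar, except in SCARNA8.

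Of the 33 scaRNA positions, 2 lay outside the RNA whose name they carry, by its length in the gene table. One is the peak of 14 in SCARNA21, within the remodeler gene CHD3, centred 31 nt past the 3' end. The other is a further peak of SCARNA11, of height 15, centred 148 nt past the end in CHD4. Both were among the 5 lowest peaks of the scaRNAs. Just inside the distance limit of 500 stood the 3' peaks of SCARNA9L, SCARNA9 and SCARNA10, at 336, 335 and 311. Nearest outside it were a position named RNU86 at 693 (height 34) and an exonic CHD4 peak at 1051 from SCARNA11 (height 17).

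The scaRNA positions held more than 50% of the listed peak height in 17 of 20 host genes, the exceptions being USP32 (44%), CHD4 and KHDC4. For snRNA copies the count was 11 of 15 genes, and no like share over all genes is given here. The scaRNA positions include the peaks past the 3' end in CHD3 and CHD4. In 11 hosts no other peak was listed, namely ATG16L1, CEP295, CHD3, EEF1E1, EIF1AX, HAUS6, KPNA4, PHB2, PPP1R8, SNHG10 and TIPIN, and in CHD3 the only peak is the one past the end of SCARNA21. Hosts were taken because a scaRNA position was listed in them, so these 11 hold 100% by construction. In 8 of the other 9 scaRNA hosts, the scaRNA held the highest peak. The 2 SCARNA27 positions count in both EEF1E1 and the readthrough gene EEF1E1-BLOC1S5. Without the readthrough gene the count over 50% is 16 of 19. The count with the highest peak in the scaRNA is then 7 of 8, with a median ratio of 2.24 in place of the one that follows. The median ratio of the highest scaRNA peak to the highest other peak of the same gene was 2.35 over these 9 genes, with a range of 0.26 to 14.9. It was largest in NCAPD2, where SCARNA10 had 194 and the only other peak 13. CHD4 carried many peaks of its own, 14 outside SCARNA11, with a median of 13.5 and a highest of 20, so that SCARNA11 and its flank held 31.7% of the height there, and SCARNA4 held 20.6% in KHDC4. KHDC4 was the exception, since its other peak, of 127, exceeded that of SCARNA4 (33). That peak lay at SNORA80E, another small RNA of the gene.

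**Figure D4:**
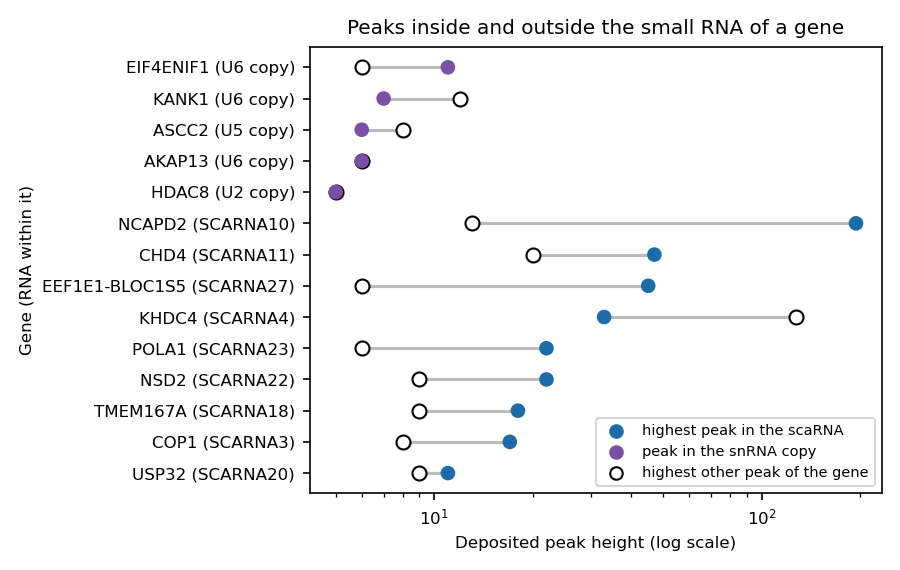
Highest peak in the small RNA (filled) and highest other peak of the same gene (open), on a log axis of height, for the 14 genes with both. In the scaRNA hosts the filled point lies to the right in 8 of 9 genes, and in the hosts of snRNA copies in 1 of 5, EIF4ENIF1.

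The gene under which a position was listed changed its expected height. Of the 33 scaRNA positions, 24 were listed under a host gene alone, 8 under both the host and the scaRNA, and 1 under the scaRNA alone. The 9 listed under the scaRNA were exactly those of height 81 or more (median 120), and the highest of the 24 others was 47. For the 8 listed both ways, the authors' expected height was 0.18 to 4.42 with the host as the gene and 16.2 to 38.9 with the scaRNA as the gene. All positions of height 47 or less were thus listed against a host's expected height only. The deposited p-value stood at its lower limit of 1e-100 for 24 of 33 scaRNA positions (72.7%) and 6 of 17 snRNA positions (35.3%). The share was 15.5% over all positions, 44.5% at C/D box snoRNA genes and 48.6% at H/ACA box snoRNA genes. The p-value did not follow height, since SCARNA2 at 424 had a deposited value of 1.27e-08 and SCARNA20 at 11 had 1e-100.

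Of the 24 snRNA genes named RNU in the gene table, 2 carried a peak under their own name (8.33%, exact 95% interval 1.03 to 27.0, beside 31.0% of protein-coding genes). Both belong to the minor spliceosome. This count goes by name, so it misses any peak at an snRNA gene that was annotated only as a repeat. The 31.0% counts a peak called anywhere in a protein-coding gene, so the 2 shares are unlike measures. RNU2-2 counts as without a peak, although a peak of 894 annotated as U2 was listed under WDR74. The gene table places RNU2-2 inside WDR74, so the count does not show that major spliceosome snRNA genes lack peaks. RNU12, the gene of the U12 snRNA, which pairs with the branch site of minor introns, had a peak of 468 at chr22:43011389-43011390 on the plus strand of hg19. It ranked 72 in the list, was 2 bases wide and lay 138 nt along an RNA of 150 nt, 12 nt from the 3' end. HOMER labelled the place as promoter-TSS of the transcript NM_178136 of POLDIP3, although the peak was listed under RNU12. RNU11, the gene of the U11 snRNA, which recognises the 5' splice site of minor introns, had a peak of 84 at chr1:28975217-28975222 on the plus strand, at 107 of 135 nt. Both peaks thus lay in the 3' part of the RNA. No peak was listed under RNU4ATAC or RNU6ATAC, the other minor spliceosome genes, or under RNU7-1, whose RNA acts in histone mRNA processing.

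Peaks annotated as U2 repeats, called U2 copies here, were the highest of the whole set. The name copy comes from the repeat annotation and does not exclude a U2 gene. U2 pairs with the branch site in the major spliceosome. The peak of 894 at chr11:62609132-62609133 on the minus strand ranked 46 in the list. It was intergenic in the annotation, 1504 bases upstream of the start site of WDR74, a ribosome assembly gene, and was listed under WDR74. The gene table, which describes another build, places the U2 gene RNU2-2 inside WDR74. The peak of 894 may therefore lie in RNU2-2 itself, which was not tested because no hg19 position of that gene was used. A peak of 639 at chr13:46948626-46948628 on the minus strand ranked 55 and lay in intron 2 of 14 of RUBCNL, an autophagy regulator gene. Both were narrow, 2 and 3 bases wide. The other 3 U2 copies were far lower, at 39 in intron 6 of 12 of KIF24, 38 in intron 1 of 3 of LINC00910 and 5 in intron 8 of 9 of HDAC8, and were 16 to 24 bases wide. All 5 U2 copy peaks lay on the minus strand. The 2 high copies held 1533 of the summed height of 1615, so U2 values rest on them. Copies of U2 resemble each other, and how reads that match several were placed is not given in the sources used here.

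Copies of the other snRNAs had peaks of at most 37. Over these 10 positions the median was 10.5, and 4 of them lay above the upper quartile of 12. The 6 U6 copies ran from 6 to 37 with a median of 14. U6 forms part of the catalytic centre of the spliceosome. The highest was in intron 6 of 9 of CCDC102B (37), followed by intergenic peaks listed under CDH20 (24) and ZBTB7C (17). The 3 others, in EIF4ENIF1 (11), KANK1 (7) and AKAP13 (6), lay within introns. For the 3 leading U6 copies, all on chromosome 18, the authors' expected height was given as 0. The U4 copy in an intron of GOLGA1 had 15, the U1 copy in SLC25A43 had 10, and the U5 copies in LRRC20 and ASCC2 had 7 and 6. Of the 15 genes under which snRNA copies were listed, U2 copies included, 10 had no other listed peak, among them WDR74 and RUBCNL. In the 5 with another peak, the copy held the highest peak in 1, and the median ratio to the highest other peak was 1. Repeat names were given only where a peak was intronic or intergenic, and the strand of the repeat is not in the list, so whether these peaks lie on the snRNA strand or on its complement is unknown.

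Peaks were narrower in scaRNAs than in most snRNA copies, and widths fell with height over the whole list. The median width was 3 bases in scaRNAs, 18 in snRNA copies and 13 over all positions. At heights of 20 to 49 the median was 3 for the 15 scaRNA positions and 3 for the 1251 positions outside the set, and it was 14 for 4 snRNA positions. At heights of 12 to 19 it was 4 for 8 scaRNA positions, 6 for 2553 others and 22 for 2 snRNA positions. At heights of 6 to 11 it was 21 for 6 snRNA positions against 16 for 9702 others. At heights of 50 to 199 it was 3.5 for 8 scaRNA positions against 2 for 346 others. Thus scaRNA peaks were about as narrow as other peaks at heights of 12 to 49 and somewhat wider at 50 to 199. The lower snRNA copies were wider, over few positions.

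**Figure D5:**
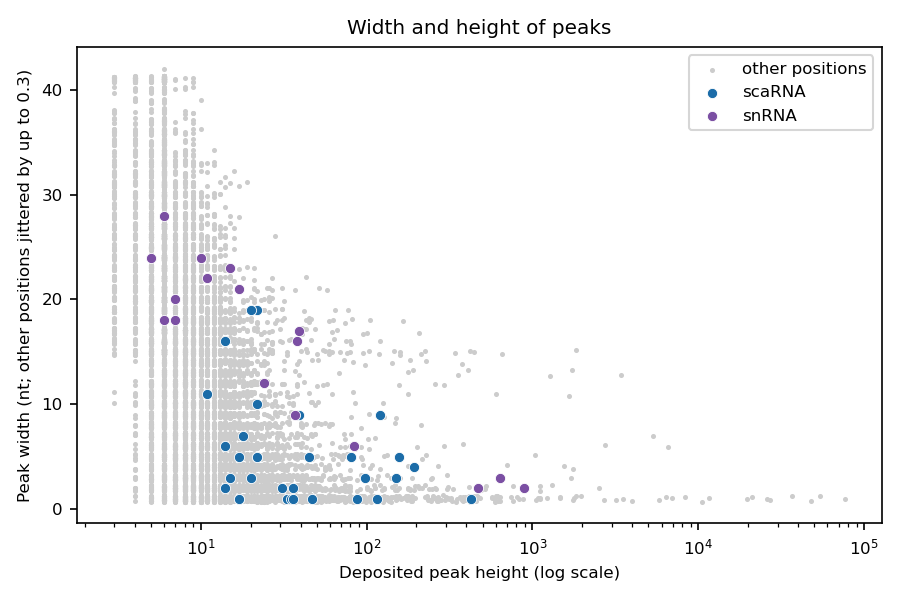
Width of each peak in nt against its height (log axis), for scaRNAs, snRNAs and all other positions in grey. The scaRNA points lie among the narrow peaks, with the widest at 19 nt in SCARNA9 and SCARNA9L and 16 nt in SCARNA21, and most snRNA copies lie at 16 to 28 nt.

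Genes that build and use these RNAs were then counted. Of 82 genes of scaRNP and snRNP machinery, 46 had a peak called in them (56.1%, exact 95% interval 44.7 to 67.0), against the same 31.0% of all protein-coding genes, expressed or not. The median of their highest peaks was 8, well below the scaRNA median. Among the Cajal body and scaRNP core genes 17 of 23 had a peak, led by NOP58 (230), NOP56 (126) and DKC1 (53), which encode core proteins of C/D and H/ACA particles. Those 3 peaks lay by SNORD11, SNORD110 and SNORA56, snoRNAs within the genes. COIL, which encodes the Cajal body scaffold coilin, had no listed peak, and WRAP53, whose product brings scaRNAs to Cajal bodies, had 1 of height 5 that was annotated in an exon nearest to EFNB3. Genes of snRNA transcription and export had a peak in 9 of 18, with INTS1 (15), XPO1 (13) and INTS11 (9) highest. Sm and LSm protein genes had one in 6 of 14, led by SNRPB (45, at SNORD119), SNRPD3 (11) and SNRPD2 (9). Genes of snRNP-specific proteins had one in 10 of 20, led by SNRNP70 (26), PRPF8 (20) and SNRNP200 (18), and snRNA modification genes in 4 of 7, with LARP7 and MEPCE (7 each) and PUS7 (6). Without peaks in small RNAs and repeats, 44 of the 82 genes had a peak, against 28.3% of protein-coding genes. With peaks of a deposited p-value up to the median alone, the count was 27, against 17.6%.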

How the data were processed

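For both samples together the authors deposited 1 list, in which the signal of a peak is its height, a whole number. The list was annotated on hg19 with HOMER's annotatePeaks.pl, per the file headers, and FastQC 0.10.1 and BWA are named with hg19 in the submitters' processing notes. For the peak caller, duplicate handling and significance rule, nothing is given in the sources used here. Positions, distances, called gene, expected height and p-value are other values that the authors deposited in that list.

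Each position was counted once (17163 entries, 16095 positions), with its lowest deposited p-value. Distances were read along the strand of the peak, and all 45 gene-named entries were then downstream of the start site. RNA lengths and gene counts came from the RefSeq table of GRCh38.p14, which gave a length for all 21 scaRNAs. Which RNA genes lie inside other genes was also read from it, and no peak position was taken from it. The families of scaRNAs and the machinery list were written from general knowledge. The members and lists were chosen with earlier results of these data known. Every member RNA was named, and for each part of the machinery list the 3 genes with the highest peaks, with COIL and WRAP53 added after their values were seen. No test between groups was possible. Intervals are exact binomial (Clopper-Pearson) or binomial order-statistic intervals at 95% from scipy 1.17.1 and cover counting error only. The member rule and intervals were tested on simulated data. No sequence of a member was used here.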

Additional observations from a re-analysis of the deposited data

How the results depend on the processing

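Of 38 alternatives over 8 results, 32 were taken to leave the value unchanged and 6 were not. A value with an interval had to stay within it, and a count within 1.5 times. The share of the summed height has no interval and is not a count. For it, alternatives giving 0.659% and 0.662% were taken as unchanged. The share of the summed height, 0.663%, became 0.594% with a distance limit of 250, 0.395% with gene-named peaks only, 0.527% without the highest position and 0.429% without the 2 highest U2 copies, an alternative chosen after seeing the data. The median height of snRNAs, 17, became 276 with gene-named peaks only, which leaves RNU11 and RNU12. The machinery count, 46 of 82, became 27 with a deposited p-value up to the median. The scaRNA median height stayed between 31 and 35, and the scaRNA genes with a peak at 20 or 21. With only the highest peak of each scaRNA gene, 65% of scaRNA peaks were on the 3' side, where the value reported was 54.8%. Without SCARNA9L, also an alternative chosen after seeing the data, 59.3% of scaRNA peaks were on the 3' side. No paired analysis was possible because both samples form 1 group and share 1 list, and leaving out a replicate could not be done for the same reason. Reads per sample are unknown, so which RNAs lacked a peak for want of depth was not tested.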
